A study of Saccharomyces cerevisiae with 4 samples.

Results

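The genes described here are 10 members of the phosphate starvation response of budding yeast, Saccharomyces cerevisiae: the phosphate transporter genes PHO84 and PHO89, the phosphatase genes PHO5, PHO8, PHO11 and PHO12, the regulator genes PHO81 and SPL2, and the polyphosphate synthesis genes VTC1 and VTC3. They were chosen by standard gene name, matched to the open reading frame that the array annotation gives for each probe. They are 10 of 6256 genes on the array and 10 of the 5343 genes that entered the tests. The choice was made with ratios of these arrays known, so the ratios of the 10 genes are given as a description, with an error and without a p-value.

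Yeast senses inorganic phosphate through the PHO pathway. When phosphate is plentiful, the kinase complex of Pho80 and Pho85 phosphorylates the activator Pho4 and keeps it out of the nucleus. When phosphate runs short, the inhibitor Pho81 blocks that kinase, and Pho4 together with Pho2 turns on transporters, secreted phosphatases and the machinery that makes and uses polyphosphate. PHO89 is also known as a target of the calcineurin pathway and of alkaline pH.

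Transcripts were measured on 8 two-colour oligonucleotide arrays in an ERG12 DAmP mutant and in the parental strain labelled BY4741. A DAmP allele lowers the amount of a transcript by disrupting its 3′ end. ERG12 encodes mevalonate kinase of the isoprenoid pathway, and the labels give the mutant 10% of the parental enzyme activity. The 4 conditions were mutant in glycerol, mutant in glucose, parental in glycerol and parental in glucose, with each carbon source at 20 g/L in synthetic YNB medium after growth on glucose.

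The labels disagree on what came just before RNA extraction. They give 1 h in the new medium, growth from an optical density of 0.1 to 0.5, and 1 h in YPD medium at pH 2.5. Growth phase, medium change and acid therefore cannot be told apart from the groups, and the phosphate content of the media is not given in the sources used here. The RNA came from whole cultures, so fewer cells carrying a transcript and less of it per cell cannot be told apart.

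The 4 comparisons had 2 arrays each from biological replicates, called here the row 1 and the row 2 array from their place on the slide. They were mutant over parental in glycerol, mutant over parental in glucose, mutant glycerol over glucose, and parental glycerol over glucose. The condition named first always carried Cy5 and the other Cy3, so no dye swap was made and each ratio includes any dye effect. All values below are log2 ratios of Cy5 over Cy3 unless a level is named, and SE is the standard error of the moderated limma fit over all 8 arrays. The 16 channels had 4917 to 5499 genes well above background and 0 saturated gene spots. Precision is limited by having 2 arrays for each comparison.

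The strain labels were checked on single channels. URA3, a marker gene that BY4741 lacks, was well above background on 8 of 8 mutant channels and on 3 of 8 parental channels, all of them on arrays shared with the mutant. Its mutant over parental ratio was 5.29 in glycerol and 5.55 in glucose. In all ratios between the strains, URA3 and the labelled ERG12 allele cannot be told apart. ERG12 itself was too dim to test: it was well above background on 1 of 4 mutant glycerol, 0 of 4 mutant glucose, 2 of 4 parental glycerol and 3 of 4 parental glucose channels. LEU2 and HIS3, which BY4741 also lacks, were above background on 0 channels. MET17, which the standard BY4741 strain lacks too, was above background on 8 of 8 channels of each strain, so on this gene the arrays go against the strain label.

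All 10 phosphate genes were well above background on all 16 channels. Each was read by 1 probe spotted 2 times per array, and the largest difference between the 2 spots of a gene on any array was between 0.10 for PHO11 and 0.35 for SPL2. The PHO11 and PHO12 proteins are near-identical, and their probes may share signal.

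The transporters carried the largest differences. PHO84 was high in mutant cells on glucose and low in both strains on glycerol. PHO89 was higher in the mutant on both carbon sources and higher on glycerol than on glucose in both strains.

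**Figure D1:**
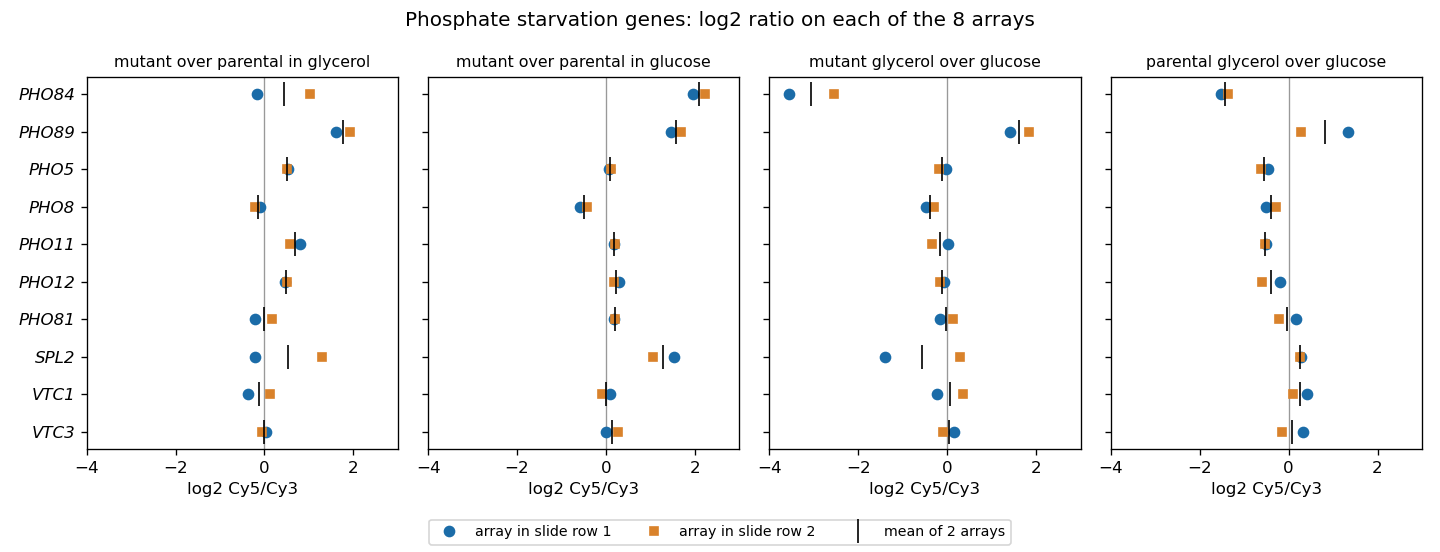
Log2 ratio of Cy5 over Cy3 (horizontal axis) of the 10 phosphate starvation genes in the 4 comparisons. Circles are arrays in slide row 1, squares arrays in slide row 2, and bars the mean of the 2 arrays. PHO84 and PHO89 lie farthest from 0, and SPL2 and PHO84 show wide gaps between the 2 arrays where mutant glycerol RNA was hybridised.

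PHO84 encodes the high-affinity proton and phosphate symporter of the plasma membrane. On glycerol its strain difference was not resolved. The ratios of mutant over parental were -0.18 on the row 1 array and 1.04 on the row 2 array, with a mean of 0.43, and the SD between the 2 arrays, 0.86, exceeded the mean. The 2 arrays did not share a direction.

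On glucose mutant cells had more PHO84 RNA than parental cells, with ratios of 1.96 and 2.23. The mean was 2.10 ± 0.30 (SE, n = 2), a 4.28-fold difference, and both arrays lay far above 0. On the raw images the mutant channel read 2861 and 3605 units, against 833.5 and 1102.5 units in the parental channel.

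Within each strain PHO84 was lower on glycerol than on glucose, and by more in the mutant. In the mutant the ratios of glycerol over glucose were -3.57 and -2.56, with a mean of -3.06 ± 0.30, an 8.35-fold lower signal. In the parental strain they were -1.53 and -1.36, with a mean of -1.44 ± 0.30, a 2.72-fold lower signal. The ranges of the 2 strains did not overlap. Mutant minus parental, the responses differed by -1.62 ± 0.42, and a dye effect that is constant for the gene cancels in it.

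The same difference can be read along the strain comparisons, as mutant over parental in glycerol minus that in glucose, and was then -1.67 ± 0.42. The 4 comparisons form a closed loop in which these routes should give 1 value. For PHO84 they differed by 0.05 ± 0.60. Over all genes this closure had a median of -0.03 and an SD of 0.23. In limma 0 of 5343 genes left closure at an adjusted p under 0.05, and 31 did at an unadjusted p under 0.05, which is 0.58% of them. That share is below the threshold itself. A dye effect that is constant for a gene cancels in the closure too, so closure cannot reveal one. The test also takes the 8 arrays as independent, which the differences between slide rows given below for SPL2 and PHO84 leave in doubt. Its count does not show that dye effects are absent.

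Normalized channel levels, on a log2 scale with 4 channels per condition, gave the order of the conditions. These channels share arrays, so their spread is not that of independent samples. Mutant glycerol was always read in Cy5 and parental glucose always in Cy3. PHO84 stood at 8.53 ± 0.67 (SD, n = 4 channels) in mutant glycerol, 11.49 ± 0.03 in mutant glucose, 8.19 ± 0.17 in parental glycerol and 9.51 ± 0.20 in parental glucose. Mutant glucose lay 1.98 above parental glucose without overlap, which in turn lay 0.98 above mutant glycerol without overlap. Mutant and parental glycerol overlapped: the mutant channels ran between 7.89 and 9.23 and the parental channels between 7.99 and 8.40.

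**Figure D2:**
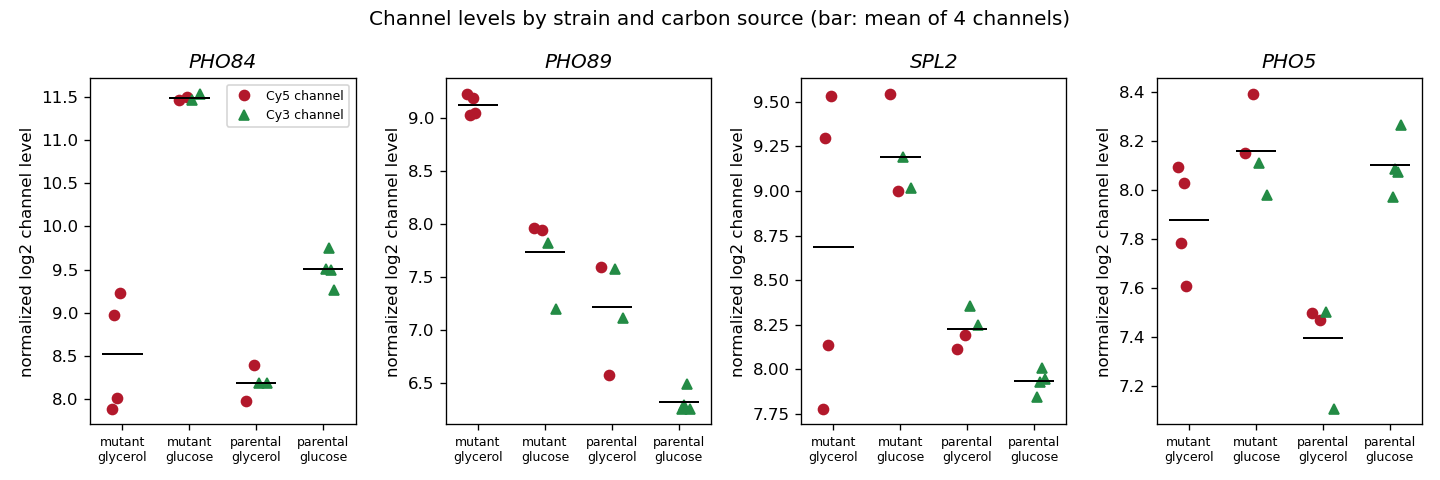
Normalized log2 channel level (vertical axis) of PHO84, PHO89, SPL2 and PHO5 in mutant glycerol, mutant glucose, parental glycerol and parental glucose. Circles are Cy5 channels, triangles Cy3 channels and bars the mean of 4 channels. PHO84 is highest in mutant glucose at 11.49, PHO89 is highest in mutant glycerol at 9.13, and the 4 mutant glycerol channels of SPL2 are split between 7.78 and 9.53.

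PHO89 encodes a sodium and phosphate symporter. In mutant cells it stood above parental cells on each carbon source. On glycerol the ratios of mutant over parental were 1.61 and 1.93, with a mean of 1.77 ± 0.23 (SE, n = 2), a 3.42-fold difference. On glucose they were 1.47 and 1.69, with a mean of 1.58 ± 0.23, a 2.99-fold difference. On those arrays the parental Cy3 channel of PHO89 read 121.25 and 130.75 units. URA3, which BY4741 lacks, read 120.25 and 133 units in the same channels and counted as well above background there. LEU2 and HIS3, which BY4741 also lacks, did not. LEU2 read 89 and 94 units, and HIS3 90 and 92.5 units. The size of this fold therefore rests on a dim signal, near that of URA3 and above those of LEU2 and HIS3. All 4 arrays that compare the strains lay between 1.47 and 1.93, and the carbon sources overlapped.

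In the mutant PHO89 was higher on glycerol than on glucose on both arrays, at 1.41 and 1.83 with a mean of 1.62 ± 0.23. In the parental strain the arrays disagreed in size, at 1.33 and 0.28 with a mean of 0.81 ± 0.23. On the row 2 array the Cy5 channel read only 48.25 units over a local background of 24.5. Without that array the parental value was 1.33, and without the row 1 array it was 0.28. Mutant minus parental, the responses differed by 0.81 ± 0.32, and along the strain comparisons the difference was 0.19 ± 0.32. The first of these values was 0.25 with median centring, 0.19 from the scanner software's processed signals and 0.50 in the loop model, and ran between 0.29 and 1.34 with 1 array left out. These routes differed by 0.62 ± 0.46, the widest gap in closure among the 10 genes.

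The size of the PHO89 ratios depended on the signals and the normalization used. With median centring in place of loess its parental ratio was 1.39, and the other 3 ratios moved by less. Leaving out the background subtraction gave 1.76 for mutant over parental in glycerol, 1.55 in glucose, 1.55 for the mutant response and 0.84 for the parental response. From the scanner software's processed signals, taken without loess, PHO89 stood at 2.47 for mutant over parental in glycerol and 2.83 in glucose. The same signals gave 2.14 for mutant glycerol over glucose and 1.95 for parental glycerol over glucose. Each is larger than the ratio given above and has the same sign. Which of the changes in that setting moved the values was not tested.

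PHO89 levels were 9.13 ± 0.10 (SD, n = 4 channels) in mutant glycerol, 7.73 ± 0.36 in mutant glucose, 7.22 ± 0.48 in parental glycerol and 6.33 ± 0.11 in parental glucose. Mutant glycerol lay 1.39 above the next condition without overlap. Parental glucose was the lowest without overlap, and in that condition URA3 stood at 6.07, LEU2 at 5.88 and HIS3 at 5.86. The ratios of PHO89 over parental glucose are therefore uncertain in size. Mutant glucose and parental glycerol differed by 0.52 and overlapped. The orders of the transporters differed: PHO84 had mutant glucose highest and both glycerol conditions lowest, and PHO89 had mutant glycerol highest and parental glucose lowest.

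SPL2 encodes a small protein known to act against low-affinity phosphate uptake when phosphate is scarce. On glycerol the ratios of mutant over parental were -0.22 and 1.28, with a mean of 0.53 ± 0.42 (SE, n = 2) and no common direction. On glucose it was higher in mutant than in parental cells, at 1.53 and 1.05 with a mean of 1.29 ± 0.42. Mutant glycerol over glucose likewise split, at -1.41 and 0.28 with a mean of -0.57 ± 0.42. Parental glycerol over glucose was alike on both arrays, at 0.27 and 0.26.

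The split in SPL2 went with the mutant glycerol RNA. The row 1 array was lower than the row 2 array by 1.69 for mutant glycerol over glucose and by 1.50 for mutant over parental in glycerol, and those are the 2 comparisons in which that RNA carried Cy5. PHO84 had the same pattern, with row 1 lower by 1.01 and by 1.21, and so did VTC1 at 0.57 and 0.50. Smaller gaps in that direction were seen for PHO89, at 0.42 and 0.32, and for PHO81, at 0.30 and 0.38. The remaining members were not lower on row 1 in both comparisons. Over all genes the median absolute difference between replicate arrays was 0.21 in each of these comparisons, with a 95th percentile of 0.78 and 0.76. The gaps of SPL2 and PHO84 were beyond that percentile in both comparisons, and those of VTC1, PHO89 and PHO81 were within it. Whether the 2 row 1 arrays held the same RNA extract is not given in the sources used here, and the part of a shared extract in these gaps was not tested.

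**Figure D3:**
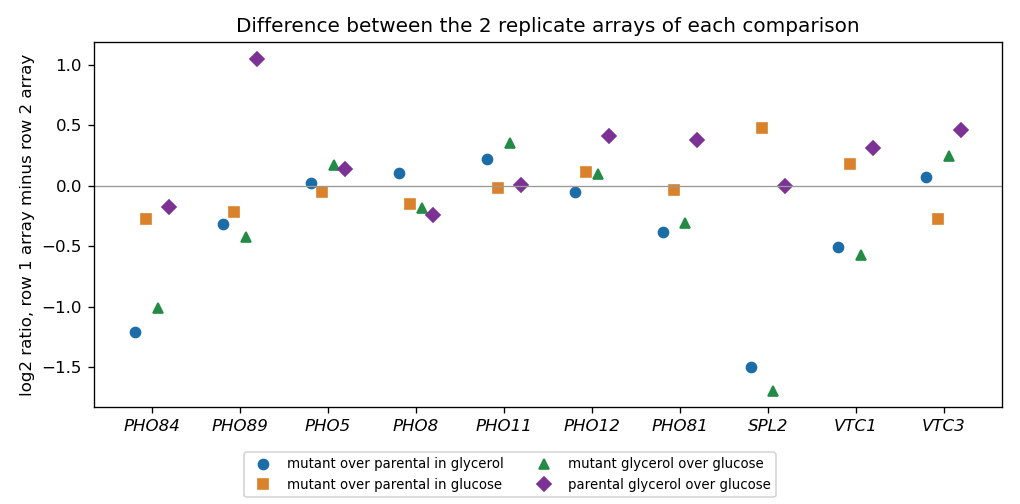
Row 1 array minus row 2 array in log2 ratio (vertical axis) for the 10 genes, with 1 symbol per comparison. SPL2 at -1.50 and -1.69 and PHO84 at -1.21 and -1.01 are lower on row 1 in the comparisons that hold mutant glycerol RNA, and PHO89 is higher on row 1 by 1.05 for parental glycerol over glucose.

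The secreted acid phosphatases PHO5, PHO11 and PHO12 release phosphate from organic compounds outside the cell, and PHO5 is the textbook reporter of the pathway. On glycerol all 3 acid phosphatase genes were higher in mutant than in parental cells. PHO5 stood at 0.53 and 0.50, with a mean of 0.51 ± 0.10. PHO11 stood at 0.80 and 0.58, with a mean of 0.69 ± 0.12, and PHO12 at 0.46 and 0.51, with a mean of 0.49 ± 0.12. On both arrays each gene lay above both of its values on glucose.

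On glucose PHO5 stood at 0.08 and 0.13 for mutant over parental, with a mean of 0.10 ± 0.10. PHO11 stood at 0.19 and 0.20, with a mean of 0.19 ± 0.12, and PHO12 at 0.30 and 0.18, with a mean of 0.24 ± 0.12. All 6 values were positive and below 1.05, the lowest of PHO84, PHO89 and SPL2 on the same 2 arrays.

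The acid phosphatase ratios of glycerol over glucose were lower in the parental strain than in the mutant. PHO5 stood at -0.02 and -0.20 in the mutant, against -0.47 and -0.62 in the parental strain. PHO11 stood at 0.01 and -0.35 in the mutant, against -0.52 and -0.53 in the parental strain. PHO12 stood at -0.06 and -0.16 in the mutant, against -0.19 and -0.60 in the parental strain. The strains did not overlap for any of these 3 genes, with the narrowest gap at PHO12. How many of all genes show such gaps, here and between the carbon sources above, was not counted, so nothing is read from them. The difference of the responses was past the threshold for 0 of the 10 members. Mutant minus parental, the responses differed by 0.44 ± 0.14 for PHO5, 0.36 ± 0.17 for PHO11 and 0.29 ± 0.17 for PHO12, with 0.41, 0.49 and 0.25 along the strain comparisons.

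The levels of the acid phosphatases put parental glycerol lowest. PHO5 averaged 7.88 ± 0.22 in mutant glycerol, 8.16 ± 0.17 in mutant glucose, 7.39 ± 0.19 in parental glycerol and 8.10 ± 0.12 in parental glucose (SD, n = 4 channels each). Parental glycerol lay 0.48 below mutant glycerol without overlap, and the other 3 overlapped along their order. Parental glycerol was also lowest without overlap for PHO11, by 0.62, while for PHO12 all neighbouring conditions overlapped.

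PHO8, the alkaline phosphatase of the vacuole, was lower in mutant than in parental cells on every array that compares them, though with arrays centred on spike-in RNA the mean in glycerol turned to 0.63. Mutant over parental in glycerol was -0.10 and -0.21, with a mean of -0.15 ± 0.11. In glucose it was -0.58 and -0.43, with a mean of -0.50 ± 0.11. Glycerol over glucose was -0.48 and -0.29 in the mutant, against -0.52 and -0.28 in the parental strain, so the 2 strains overlapped. Their responses differed by 0.01 ± 0.16, mutant minus parental, against 0.35 ± 0.16 along the strain comparisons. Parental glucose had the highest PHO8 level, 11.16 ± 0.17, and lay 0.35 above the next condition without overlap.

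PHO81, the inhibitor of the Pho80 and Pho85 kinase and itself a target of Pho4, stayed near 0. Its 2 ratios of mutant over parental in glucose were 0.18 and 0.22. In the other 3 comparisons its arrays lay on both sides of 0, between -0.23 and 0.18, and the channel levels of all neighbouring conditions overlapped.

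VTC1 and VTC3 encode subunits of the vacuolar complex that makes polyphosphate. VTC3 lay between -0.15 and 0.31 on the 8 arrays, and VTC1 between -0.38 and 0.41. For both genes all neighbouring conditions overlapped in level. VTC1 was at 0.25 ± 0.17 for parental glycerol over glucose, and its sign turned to -0.9997 with arrays centred on spike-in RNA, to -0.26 under median centring, to -0.09 in the scanner software's processed signals and to -0.24 in the authors' deposited table, with the sign of its column turned.

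The counts past an adjusted p under 0.05 in limma were set beside the share of all genes past it, and since these contrasts were known when the 10 genes were chosen, nothing is read from them. Mutant over parental in glycerol had 3 of 10 genes past the threshold, PHO89, PHO5 and PHO11, all higher, beside 4.17% of all genes tested and 3.33% in that direction. Mutant over parental in glucose had 3 of 10, PHO84 and PHO89 higher and PHO8 lower, beside 7.06% of all genes. In the higher direction the share was 3.5% and in the lower 3.56%. Without either of the 2 arrays of a strain comparison, 0 of the 10 passed in it, with the lone array assumed to vary like the other groups.

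Mutant glycerol over glucose had 3 of 10 genes past the threshold, PHO89 higher and PHO84 and PHO8 lower, beside 46.4% of all genes, 24.9% higher and 21.5% lower. Parental glycerol over glucose had 6 of 10, PHO89 higher and PHO84, PHO5, PHO8, PHO11 and PHO12 lower, beside 61.3% of all genes, 31.8% higher and 29.5% lower. Without its row 1 array the parental count was 3. The difference of the responses had 0 of 10 past the threshold in limma, beside 1.72% of all genes, and 3 of 10 at an unadjusted p under 0.05, beside 20.9% of all genes. With spike-in centring 6 of 10 passed for that difference, all higher, and in the loop model 3 did, 2 higher and 1 lower. For mutant over parental in glycerol the count was 1 with median centring, 4 in the loop model and 8 with spike-in centring. The median over the 10 genes was 0.46 for mutant over parental in glycerol, 0.20 in glucose, -0.11 for mutant glycerol over glucose and -0.22 for the parental response. The medians of all genes tested lay between 0.00 and 0.03.

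The authors' deposited table, which merges the replicate arrays, gave PHO84 at 0.37 for mutant over parental in glycerol and at 2.06 in glucose. The authors' deposited table gave PHO84 at -3.27 for mutant glycerol over glucose and at 1.58 for the parental response. That last column ran opposite to the scanner ratios across genes, at r = -0.99, and also at a spike-in RNA, so with its sign turned it reads -1.58. For PHO89 the authors' deposited table gave 1.92 in glycerol and 1.26 in glucose for mutant over parental, 1.51 for the mutant response and 0.84, sign turned, for the parental response.

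The remaining phosphate genes were read from 6 lists holding 35 genes, of which 32 were tested. GIT1, PHM6 and DDP1 were well above background on 0 arrays in any comparison and were not tested. For mutant over parental in glycerol 2 of the 32 rose and 0 fell, beside 4.17% of all genes, and in glucose 0 rose and 1 fell, beside 7.06%. The difference of the responses was past the threshold for 0 of the 32 in limma, and 9 had an unadjusted p under 0.05, beside 20.9% of all genes. With spike-in centring 16 of the 32 passed for that difference, all higher, and in the loop model 2 were higher and 2 lower. Within the strains, mutant glycerol over glucose had 8 that rose and 7 that fell, and parental glycerol over glucose had 10 that rose and 11 that fell. That makes 46.9% of the tested list genes in the mutant and 65.6% in the parental strain, close to the shares of all genes given above. The balance of directions held only in part under other scalings: with spike-in centring 6 rose and 1 fell in the mutant, and 4 rose and 17 fell in the parental strain, and with median centring 7 rose and 2 fell in the mutant. For mutant over parental in glycerol 22 of the 32 passed with spike-in centring, all higher, and 0 with median centring.

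Among 7 tested regulators, 1 rose on glycerol in the mutant, against 3 that rose and 1 that fell in the parental strain, beside 46.4% and 61.3% of all genes past the threshold. With spike-in centring the parental count was 0 higher and 4 lower. PHO2, the homeodomain partner of Pho4, rose on glycerol in both strains, by 0.69 ± 0.12 in the mutant (limma adjusted p = 0.00235) and by 0.76 ± 0.12 in the parental strain (limma adjusted p = 0.000845). PHO85, the kinase gene, stood at 0.21 ± 0.14 in the mutant, against 0.83 ± 0.14 in the parental strain, where it rose (limma adjusted p = 0.00111); with arrays centred on spike-in RNA the parental values of PHO2 and PHO85 turned to -0.10 and -0.38. PHO80, the cyclin gene, stood at -0.21 in the mutant and fell by 0.39 in the parental strain (limma adjusted p = 0.0379), a call that was lost with slide row as a block (adjusted p = 0.0542). PHO4 itself did not pass in any comparison with the processing used above. It stood at -0.25 in each strain for glycerol over glucose, at 0.01 for mutant over parental in glycerol and at 0.21 in glucose. From the scanner software's processed signals it passed as lower on glycerol, at -0.56 in the mutant and -0.55 in the parental strain (limma adjusted p = 0.0359 and 0.0302). It also passed at -0.71 in the parental strain with spike-in centring (limma adjusted p = 0.0351). In the mutant it passed at -0.30 in the loop model (limma adjusted p = 0.0329).

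Of the 4 low-affinity and other transporters, 3 fell on glycerol in the mutant and 4 in the parental strain, beside 21.5% and 29.5% of all genes lower. In the mutant 1 of the 4 fell with median centring and 1 with spike-in centring. PHO90, a low-affinity plasma membrane transporter, fell by 1.16 ± 0.15 in the mutant (limma adjusted p = 0.000507) and fell by 1.57 ± 0.15 in the parental strain (limma adjusted p = 5.32e-05). PHO91, the vacuolar phosphate transporter, fell by 0.46 in the mutant (limma adjusted p = 0.0198) and fell by 1.33 in the parental strain (limma adjusted p = 6.71e-05). PHO87, the other low-affinity transporter of the plasma membrane, fell by 0.37 in the mutant (limma adjusted p = 0.0181) and fell by 0.53 in the parental strain (limma adjusted p = 0.00244). SYG1, a relative of the phosphate exporters, stood at -0.15 in the mutant and fell by 0.80 in the parental strain (limma adjusted p = 0.0468). That call was lost with no filter on dim genes (limma adjusted p = 0.0688), where 3 of the 4 fell in the parental strain. Between the strains, PHO87 was higher by 0.53 in the mutant on glycerol (limma adjusted p = 0.0293), and PHO91 fell by 0.55 in the mutant on glucose (limma adjusted p = 0.0455). The PHO91 and PHO87 falls in the mutant did not pass with median centring in place of loess (limma adjusted p = 0.194 and 0.119). Neither did the strain differences of PHO91 in glucose and of PHO87 in glycerol (limma adjusted p = 0.124 and 0.104).

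Of 7 other phosphate starvation targets, 2 rose and 1 fell on glycerol in the mutant, and 2 rose and 2 fell in the parental strain. That is 42.9% and 57.1% of them, close to the 46.4% and 61.3% of all genes past the threshold. PHM7, a membrane protein gene named for phosphate metabolism, rose by 4.87 ± 0.16 in the mutant (limma adjusted p = 4.72e-07) and by 5.53 ± 0.16 in the parental strain (limma adjusted p = 1.85e-07). PPN1, an endopolyphosphatase gene, rose by 0.71 in the mutant and by 0.61 in the parental strain (limma adjusted p = 0.00123 and 0.00159), and under spike-in centring its parental value turned to -0.32. VTC2, another subunit of the polyphosphate complex, stood at 0.02 in the mutant and fell by 0.63 in the parental strain (limma adjusted p = 0.00351). PHM8, a lysophosphatidic acid phosphatase gene, fell by 0.43 in the mutant (limma adjusted p = 0.0459) and stood at 0.38 in the parental strain, and the mutant call was lost under median centring (adjusted p = 0.0755).

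Of 3 polyphosphate turnover genes, 1 fell on glycerol in the mutant and 2 in the parental strain, and of 3 other phosphatase genes 1 fell in each. Of all genes, 21.5% fell in the mutant and 29.5% in the parental strain. VTC5, a regulatory partner of the polyphosphate complex, stood at -0.10 in the mutant and fell by 1.15 ± 0.19 in the parental strain (limma adjusted p = 0.000984). PPX1, an exopolyphosphatase gene, fell by 0.40 in the mutant (limma adjusted p = 0.016) and fell by 0.50 in the parental strain (limma adjusted p = 0.00414). The mutant call of PPX1 was lost with median centring (limma adjusted p = 0.173). PHO13, an intracellular phosphatase gene, fell by 0.79 in the mutant (limma adjusted p = 0.00172) and fell by 0.68 in the parental strain (limma adjusted p = 0.00224).

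Of 8 genes that share the calcineurin and alkaline response with PHO89, 5 rose on glycerol and 1 fell in each strain, beside 24.9% of all genes higher in the mutant and 31.8% in the parental strain. With spike-in centring 3 of the 8 rose in each strain, while 0 fell in the mutant and 2 in the parental strain. ENA2, a sodium pump gene, rose by 3.03 ± 0.10 in the mutant (limma adjusted p = 4.72e-07) and by 3.10 ± 0.10 in the parental strain (limma adjusted p = 3.7e-07). ENA1 rose by 2.55 in the mutant and by 2.19 in the parental strain. PMC1, the vacuolar calcium pump gene, rose by 1.55 in the mutant (limma adjusted p = 0.000522) and by 2.21 in the parental strain (limma adjusted p = 4.36e-05). ENA5, a further copy of the sodium pump gene, went the other way: it fell by 0.32 in the mutant (limma adjusted p = 0.0477) and fell by 0.32 in the parental strain (limma adjusted p = 0.0359). Its mutant call was lost with median centring and without background subtraction, where 0 of the 8 fell. RCN1 and CMK2, also on this list, did not pass in either strain. RCN1 stood at 0.07 in the mutant and 0.10 in the parental strain, and CMK2 at -0.07 and -0.27. The ENA genes are near-identical tandem copies, and whether their probes share signal was not tested. For mutant over parental, 1 of the 8 passed in glycerol, ENA2 at 0.51 ± 0.10 (limma adjusted p = 0.0293), and 0 in glucose, where ENA2 stood at 0.25. PHO89 stood at 1.77 and 1.58 in those comparisons. The ENA2 call in glycerol was lost with median centring (limma adjusted p = 0.204).

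**Figure D4:**
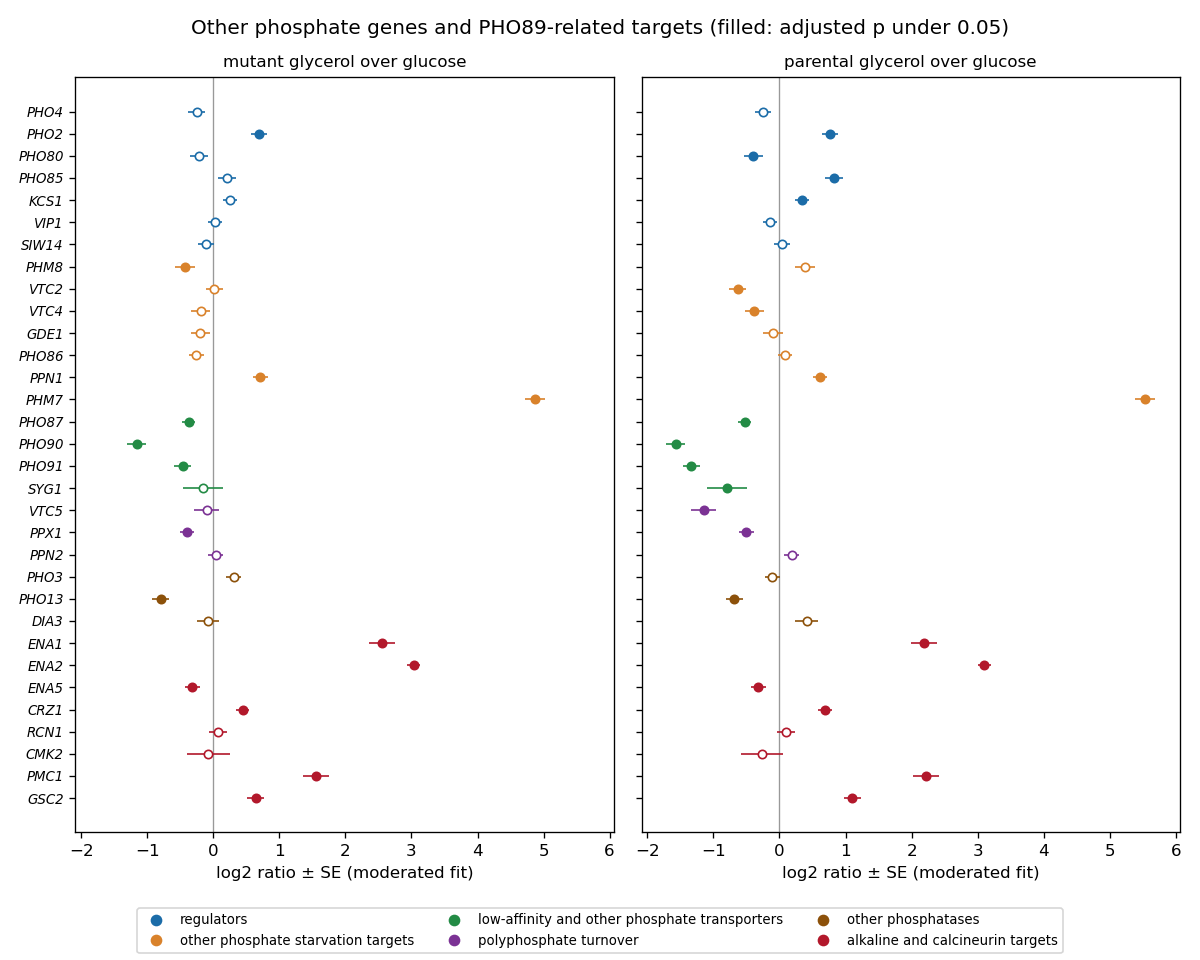
Log2 ratio of glycerol over glucose ± SE (horizontal axis) of the 32 tested genes of the other lists, in the mutant (left) and the parental strain (right), coloured by list, with filled symbols past an adjusted p under 0.05. PHM7 lies farthest right at 4.87 in the mutant and 5.53 in the parental strain, and PHO90 farthest left at -1.16 and -1.57.

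The 10 genes did not move as a unit over the 8 arrays. Pearson's r to PHO84 over the 8 log2 ratios was 0.84 for SPL2, 0.60 for PHO12, 0.53 for PHO81, 0.52 for PHO11 and 0.48 for PHO5. It was 0.26 for PHO89, 0.08 for VTC3, -0.03 for PHO8 and -0.12 for VTC1. Pearson's r to PHO89 was highest for PHO12 at 0.77 and PHO5 at 0.72. These are descriptions over 8 arrays that form 4 pairs of replicates and share conditions and 1 slide, and they carry no p-value.

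The 5 genes of the array most like PHO84 in this sense were GPP2, OYE2, HXT2, BNA4 and RNR4, with r of 0.99, 0.98, 0.98, 0.98 and 0.98. GPP2, a glycerol phosphate phosphatase gene, stood at 0.11 for mutant over parental in glycerol and at 1.40 in glucose. It stood at -2.13 for glycerol over glucose in the mutant and at -1.21 in the parental strain. HXT2, a hexose transporter gene, stood at -0.52, 1.32, -3.95 and -2.47 in those 4 comparisons. The 5 genes most like PHO89 were TSC13, CMD1, MON2, CHS1 and VMA3, with r between 0.96 and 0.99. Their ratios lay between -0.87 and 0.09 in every comparison, and all were negative except 2 values of VMA3, while the 4 mean ratios of PHO89 were positive.

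Another scaling set all ratios differently. The arrays carry spike-in RNA, and with each array centred on those probes the all-gene median became 0.09 for mutant glycerol over glucose and -0.72 for the parental response. It became 0.75 for mutant over parental in glycerol and -0.12 in glucose. The nominal spike-in ratios are not in the files used here, so these shifts are known only relative to the mean of the 8 arrays. That mean was set to 0, so the sign of a single ratio under this scaling rests on that choice. Differences between comparisons do not. Under this scaling PHO84 stayed lower on glycerol in both strains, at -2.83 in the mutant and -2.40 in the parental strain, and PHO89 stayed higher in the mutant, at 2.55 in glycerol and 1.48 in glucose. Other members turned sign. For mutant over parental in glycerol PHO8 turned to 0.63, PHO81 to 0.76, VTC1 to 0.63 and VTC3 to 0.70. For the parental response SPL2 turned to -0.55, VTC1 to -0.9997 and VTC3 to -0.42. In the other comparisons the values that turned, of PHO5, PHO11, PHO81 and VTC1, lay within 0.1 of 0 under this scaling. The difference of the responses turned to 0.12 for SPL2, 0.9986 for VTC1 and 0.45 for VTC3. The difference of the PHO84 responses was -0.43 there, where all genes had a median of 0.93.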

How the data were processed

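Per the file headers, Agilent Feature Extraction 10.10.1.1 wrote the scanner files, from which median spot intensity and median background intensity were used. As deposited, they also gave the log10 ratio of the processed signals, and other columns of flags (above background, outlier, saturated). The authors' deposited table, for which the submitters' processing notes name limma, gives log2 values in which the replicate arrays of a comparison are merged. Its log base is not given in the sources used here and was taken from slopes of 0.93 to 1.00 in size against the scanner ratios, and its parental column had the opposite sign. Its column medians lay between -0.05 and 0.06.

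The intensities were turned into ratios with limma 3.58.1 under R 4.3.3: normexp with an offset of 50, loess within arrays with control and outlier spots at weight 0, and the mean of both spots. Tested genes had both spots well above background in all channels of 1 or more of the 4 conditions. Each comparison had 1 coefficient, with 4 residual degrees of freedom, eBayes and Benjamini-Hochberg adjustment over 5343 genes at 0.05. The fit was also run on simulated data with independent noise on each array, which cannot show whether the real arrays are independent. P-values measure the spread between 2 replicate arrays per comparison and take the 8 arrays as independent. Gene names came from RefSeq (R64), which matched 5756 of 6256 genes.

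The members, lists and tests were chosen with earlier results of these data known. Named are the 10 members, PHO4, PHO2, PHO80 and PHO85, up to 3 genes past the threshold per other list and comparison by size, the 5 genes most like PHO84 and PHO89 each, and strain markers. ERG12 and the list genes outside that rule were named after their values were seen.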

Additional observations from a re-analysis of the deposited data

How the results depend on the processing

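Of 920 recomputed values of the 10 phosphate genes, 828 moved by less than the SD between replicate arrays, 92 moved by more, and 0 of the values past the threshold changed sign. Signs of some other values turned, most widely with spike-in centring as given above. For the ratio of a comparison, several settings could not give a larger move. Changing the filter on dim genes, adding the slide row block or leaving out an array of another comparison returns the same ratio. Leaving out an array of the same comparison moves the mean by less than that SD by construction. These settings are counted in the 920, so the count of 828 says little about how firm the ratios are. The count of all genes past the threshold was 377 for mutant over parental in glucose, and was 134 with median centring, 52 with spike-in centring and 935 in the loop model. For mutant over parental in glycerol it was 223, and was 112, 3438 and 714 under those settings. For mutant glycerol over glucose it was 2477, and 1143 with spike-in centring. For the difference of the responses it was 92, and was 39 from the scanner software's processed signals, 2413 with spike-in centring, 54 with no filter on dim genes, 58 with genes above background on all 16 channels, 990 in the loop model and 35 with slide row as replicate block. Leaving out each array in turn, the counts ranged from 19 to 272 for mutant over parental in glycerol, 5 to 364 in glucose, 1438 to 2465 for mutant glycerol over glucose, 2229 to 3269 for the parental response and 0 to 179 for the difference of the responses. With the replicate block the other counts were 194, 272, 2398 and 3251 in that order. The labels give no number that pairs arrays across comparisons, so the block rests on the slide row alone. The share of higher calls in the parental response was 51.8%, and 10.9% with spike-in centring. The cause of these moves was not tested.

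With spike-in centring, signs turned for the parental response of PHO85 (-0.38), PHO2 (-0.10) and PPN1 (-0.32), for mutant over parental in glycerol of PHO2 (0.70), PHO80 (0.73) and PHO85 (0.36), and for the difference of the responses of PHO4 (0.45), PHO2 (0.92) and PHO85 (0.65). With median centring, PHO4 turned to 0.022 in the parental response and to -0.11 for mutant over parental in glycerol, and PHO2 to 0.073 in the difference of the responses. With no background subtraction PHO4 turned to 0.0069 in that difference. Leaving out an array, mutant over parental in glycerol ranged from -0.22 to 0.033 for PHO2, -0.28 to 0.15 for PHO80 and -0.12 to 0.15 for PHO4. The difference of the responses then ranged from -0.23 to 0.083 for PHO2, -0.012 to 0.37 for PHO80 and -0.095 to 0.092 for PHO4. Of the called list genes, SYG1, PHO80 and VTC2 in the parental strain lost their call without its row 2 array (adjusted p = 0.346, 0.384 and 0.0625), and SYG1 also without its row 1 array (adjusted p = 0.105). In the mutant, PHM8, PHO87 and PPX1 lost theirs without either array. They stood at -0.24, -0.27 and -0.40 without the row 1 array and at -0.61, -0.47 and -0.41 without the row 2 array. PHO91 lost its mutant call without the row 2 array, at -0.24. The strain differences of PHO91 in glucose and of PHO87 and ENA2 in glycerol also lost their calls without either array. Without the row 1 array they stood at -0.60, 0.60 and 0.48, and without the row 2 array at -0.50, 0.46 and 0.55. The standard error of a ratio was 0.42 for SPL2, 0.30 for PHO84 and 0.23 for PHO89.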
